A study of Mus musculus with 7 samples.

Results

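The choroid plexus epithelium genes are 31 genes known to be expressed by the epithelial cells of the choroid plexus, picked by symbol from the authors' table of 21965 genes. All 31 had a row, and all 31 were among the 14417 genes that passed the filter on low counts. RNA was sequenced from mouse hippocampus in 7 libraries. In 4 of them the mice had noise-induced hidden hearing loss (NIHHL) after 110 dB noise for 2 h, with tissue taken 1 month later, and the other 3 were blank controls (Control). The labels give no strain, age, sex, dissection scheme or batch, and do not say whether a library came from 1 animal or a pool, so the tests reflect how far these libraries spread, which may be technical.

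The choroid plexus hangs in the brain ventricles, close to the medial edge of the hippocampus. Its epithelium secretes cerebrospinal fluid by moving ions and water from the blood side to the ventricle, seals the blood-cerebrospinal fluid barrier with tight junctions, and releases carrier proteins and signals into the fluid. Ttr, transthyretin, which carries thyroxine and retinol-binding protein, is its best known product and served as the marker of the tissue.

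Ttr differed between libraries far more than between groups. NIHHL replicates 1 to 4 had 7826, 487, 4355 and 3864 CPM of Ttr, against 56.3, 6558 and 1283 CPM in Control replicates 1 to 3. CPM, the unit of level used throughout, is a gene's count relative to the scaled total of its library. The group ranges overlapped: Control replicate 2 lay above 3 of the 4 NIHHL libraries, and NIHHL replicate 2 lay below 2 of the 3 Control libraries. The summed level of the 31 genes was 12958, 1219, 6907 and 7063 CPM in NIHHL replicates 1 to 4, against 524, 9890 and 2613 CPM in Control replicates 1 to 3, which is the same order of libraries except that NIHHL replicates 3 and 4 changed places. Ttr made up 60.4%, 40.0%, 63.1% and 54.7% of that sum in the NIHHL libraries and 10.8%, 66.3% and 49.1% in the Control libraries.

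The same libraries stood at the ends in nearly every gene. NIHHL replicate 1 was the highest library in all 31 genes. Control replicate 1 was the lowest in 30, and the exception was Tmem72, which was lowest in NIHHL replicate 2. In bulk tissue, fewer cells of a type and less RNA per cell cannot be told apart. The defining neuronal genes of the hippocampus were present in every library. A list of 12 hippocampal neuron genes summed to between 1253 and 1428 CPM in NIHHL and between 1243 and 1393 CPM in Control. Neurod6, a transcription factor of pyramidal neurons, ran from 165 to 192 CPM in NIHHL and from 178 to 212 CPM in Control. Prox1 and Wfs1, the other defining genes of that list, varied more. Prox1 ran from 107.5 to 165.9 CPM in NIHHL and from 101.2 to 145.5 CPM in Control. Wfs1 ran from 98.39 to 123.7 CPM in NIHHL and from 65.74 to 130.7 CPM in Control, lowest in Control replicate 2.

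**Figure D1:**
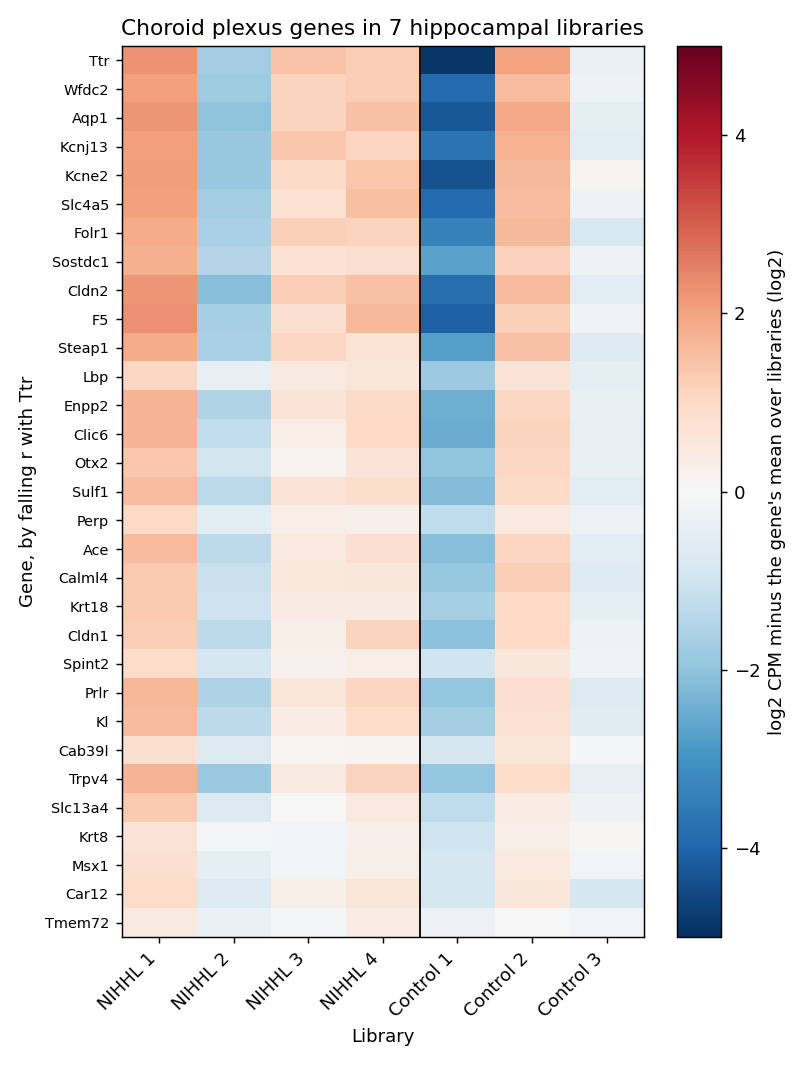
Level of each of the 31 genes (rows, Ttr first and then by falling correlation with Ttr) in each library (columns, 4 NIHHL left of 3 Control), as log2 CPM minus the gene's own mean over the 7 libraries. The columns of NIHHL replicate 1 and Control replicate 2 are red and those of NIHHL replicate 2 and Control replicate 1 are blue over nearly all rows, and the rows fade towards Tmem72 at the bottom.

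Because these genes moved together across libraries, the 250 bases upstream of their start sites were read from RefSeq (build GRCm38.p6). Of the 31 genes, 23 had an entry there. The others, Ttr, Folr1, Enpp2, Clic6, Sostdc1, Sulf1, Perp and Lbp, had none and were not searched. The letters TAATCC, which Otx2, a homeodomain factor required for choroid plexus formation, is known to bind, were searched on both strands, where they read GGATTA on the opposite strand. They were found upstream of 2 of the 23 genes (8.70%), Ace and Otx2, upstream of 6.27% of the 11140 tested genes with an entry and upstream of 7.21% of all 27025 genes with an entry. Some genes have several start sites: the match stood at 1 of 2 windows of Ace and at 1 of 4 windows of Otx2, and that window of Otx2 lies within annotated exons over all its 250 bases. A match is a description of the letters only. The matching window of Ace and the windows of 3 close followers (Aqp1, Kcnj13 and Cldn2) of Ttr are given here, 5′ to 3′ on the strand of the gene. Ace is shown for the match, and the others as examples of members with a steep slope on Ttr. Other steep members with an entry, such as Kcne2 and F5, are not shown. Capitals mark the match, and the absence of capitals means that the letters were not in that window.
Ace (chr11:105967698-105967947, + strand): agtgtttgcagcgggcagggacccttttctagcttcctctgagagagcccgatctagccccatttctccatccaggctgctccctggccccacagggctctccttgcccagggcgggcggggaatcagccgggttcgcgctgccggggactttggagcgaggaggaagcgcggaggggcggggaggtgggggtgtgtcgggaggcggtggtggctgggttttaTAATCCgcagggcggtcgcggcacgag
Aqp1 (chr6:55336049-55336298, + strand): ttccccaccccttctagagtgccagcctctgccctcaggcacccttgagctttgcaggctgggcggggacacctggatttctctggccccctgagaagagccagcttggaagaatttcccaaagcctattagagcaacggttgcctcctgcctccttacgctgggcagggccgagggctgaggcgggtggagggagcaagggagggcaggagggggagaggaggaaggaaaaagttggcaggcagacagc
Kcnj13 (chr1:87394730-87394979, - strand): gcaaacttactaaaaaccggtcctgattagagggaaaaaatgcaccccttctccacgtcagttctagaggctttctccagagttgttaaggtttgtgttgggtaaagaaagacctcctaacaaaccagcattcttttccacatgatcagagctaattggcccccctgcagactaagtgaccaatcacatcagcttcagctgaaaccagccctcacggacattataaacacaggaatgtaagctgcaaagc
Cldn2 (chrX:139800558-139800807, + strand): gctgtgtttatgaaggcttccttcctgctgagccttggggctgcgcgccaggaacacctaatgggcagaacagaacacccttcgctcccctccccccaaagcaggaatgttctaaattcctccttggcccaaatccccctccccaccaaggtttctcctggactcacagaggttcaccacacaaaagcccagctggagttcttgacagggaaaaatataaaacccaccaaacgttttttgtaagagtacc

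Ttr and Enpp2, both secreted, had the highest mean levels of the set, and Wfdc2, also secreted, had the lowest. Enpp2, autotaxin, which makes the lipid mediator lysophosphatidic acid and is also made by oligodendrocytes, had 3267, 355, 1599 and 1964 CPM in NIHHL replicates 1 to 4, against 186, 2048 and 780 CPM in Control replicates 1 to 3. Kl, klotho, a coreceptor for FGF23 that is also shed, had 286, 38.1, 120 and 180 CPM in the NIHHL libraries and 27.9, 161 and 61.8 CPM in the Control libraries. In both genes NIHHL replicate 1 was highest, Control replicate 1 lowest, and the groups overlapped. Per kilobase of exon, Ttr reached 6599 CPM in NIHHL replicate 1 and 47.5 CPM in Control replicate 1, Enpp2 565 and 32.3 CPM, and Kl 30.6 and 2.99 CPM.

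F5, coagulation factor V, had 115, 7.41, 40.6 and 73.0 CPM in NIHHL against 1.28, 54.3 and 20.8 CPM in Control. Lbp, the lipopolysaccharide-binding protein, had 42.6, 15.5, 28.02 and 31.02 CPM in NIHHL against 5.80, 32.6 and 14.5 CPM in Control. F5 thus spanned 90.0-fold between NIHHL replicate 1 and Control replicate 1, and Lbp 7.35-fold. Sostdc1, an inhibitor of BMP and Wnt signalling, had 40.8, 4.20, 19.6 and 20.6 CPM in NIHHL and 1.75, 26.5 and 9.95 CPM in Control. Wfdc2, a small secreted protein with whey acidic protein domains, had 6.31, 0.345, 3.19 and 3.48 CPM in NIHHL and 0, 4.41 and 1.18 CPM in Control. It had no count in Control replicate 1, where 3 counts, the limit that a count of 0 allows, correspond to 0.202 CPM. NIHHL replicate 1 was at least 31.2-fold higher than that limit, which covers counting error only.

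Receptors and uptake proteins differed widely in how far they spread between libraries. Folr1, the folate receptor that moves folate into the cerebrospinal fluid, had 58.0, 5.12, 36.8 and 34.5 CPM in NIHHL replicates 1 to 4, against 1.42, 49.0 and 9.20 CPM in Control replicates 1 to 3. Prlr, the prolactin receptor, had 55.6, 6.09, 27.0 and 37.3 CPM in NIHHL and 4.59, 31.8 and 10.99 CPM in Control. Folr1 differed 40.96-fold between NIHHL replicate 1 and Control replicate 1, and Prlr 12.1-fold. Steap1, a metalloreductase-family protein, had 15.5, 1.32, 8.70 and 6.96 CPM in NIHHL and 0.539, 11.8 and 2.69 CPM in Control. Slc13a4, a sulfate transporter, had 51.7, 12.7, 20.8 and 29.0 CPM in NIHHL and 8.43, 27.0 and 17.3 CPM in Control, and its NIHHL replicate 3 lay below Control replicate 2. The groups overlapped in each of these 4 genes.

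Ion and water transport genes contained the steepest members. Aqp1, the water channel of the ventricular membrane, had 37.9, 1.95, 17.6 and 23.1 CPM in NIHHL against 0.337, 31.2 and 6.04 CPM in Control, where the lowest value rests on 5 counts. Kcne2, a potassium channel subunit, had 38.6, 2.30, 17.6 and 23.8 CPM in NIHHL and 0.337, 27.8 and 9.90 CPM in Control. Both genes differed over 100-fold between NIHHL replicate 1 and Control replicate 1, by 112-fold for Aqp1 and 114-fold for Kcne2. Slc4a5, a sodium bicarbonate cotransporter, had 51.3, 3.68, 21.4 and 35.9 CPM in NIHHL and 0.742, 36.0 and 10.5 CPM in Control. Kcnj13, an inward rectifier potassium channel, had 56.2, 3.56, 34.1 and 28.3 CPM in NIHHL and 0.944, 44.9 and 9.10 CPM in Control. Its exons share 623 bases with Gigyf2 on the opposite strand in the GENCODE annotation of GRCm38, and its deposited counts carried decimals in some libraries, so some of its reads may have been divided.

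Clic6, a chloride intracellular channel protein, had 132, 17.4, 51.4 and 81.6 CPM in NIHHL and 7.28, 89.2 and 31.1 CPM in Control. Trpv4, a calcium-permeable channel that opens on osmotic and mechanical stimuli, had 18.1, 1.44, 7.54 and 12.0 CPM in NIHHL and 1.348, 10.5 and 4.10 CPM in Control. These 2 genes spanned 18.2-fold and 13.5-fold between NIHHL replicate 1 and Control replicate 1. Car12, a membrane carbonic anhydrase, was flatter, with 115, 38.3, 75.2 and 92.5 CPM in NIHHL and 33.0, 91.3 and 34.5 CPM in Control, a 3.48-fold span.

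Among junction and epithelial genes the claudins followed the library most steeply. Cldn2, the pore-forming claudin of leaky epithelia, had 49.8, 2.36, 24.8 and 29.7 CPM in NIHHL against 0.674, 32.1 and 7.07 CPM in Control, with NIHHL replicate 1 73.9-fold above Control replicate 1. Cldn1, a barrier-forming claudin, had 21.8, 3.62, 11.4 and 19.9 CPM in NIHHL and 2.16, 18.6 and 7.55 CPM in Control, a 10.1-fold span. The keratins of simple epithelia are partners in 1 filament, yet Krt18 spanned 8.24-fold and Krt8 3.22-fold between the same libraries. Krt18 had 15.6, 2.99, 8.26 and 8.38 CPM in NIHHL and 1.89, 12.6 and 4.53 CPM in Control. Krt8 had 6.95, 4.08, 3.96 and 5.25 CPM in NIHHL and 2.16, 5.45 and 4.53 CPM in Control. Spint2, a protease inhibitor of epithelia, and Perp, a desmosome protein, spanned 3.77-fold and 5.01-fold.

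The transcription factors were low and unequal in span. Otx2 had 25.8, 5.29, 11.5 and 15.7 CPM in NIHHL and 2.50, 20.8 and 7.83 CPM in Control. Msx1, a homeodomain factor of the dorsal midline, had 19.5, 8.05, 9.97 and 13.6 CPM in NIHHL and 6.14, 15.7 and 9.997 CPM in Control. NIHHL replicate 1 exceeded Control replicate 1 by 10.4-fold for Otx2 and 3.17-fold for Msx1. Of the enzymes, Ace, the angiotensin-converting enzyme, had 156, 21.0, 73.0 and 91.5 CPM in NIHHL and 12.0, 111 and 36.3 CPM in Control. Sulf1, which trims sulfate groups from heparan sulfate, had 102, 13.6, 53.1 and 63.9 CPM in NIHHL and 7.62, 65.9 and 23.6 CPM in Control.

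The 3 members without a firm functional class were the flattest on balance. Calml4, a calmodulin-like protein, spanned 9.66-fold between NIHHL replicate 1 and Control replicate 1, and Cab39l, a relative of the LKB1 kinase cofactor MO25, 3.13-fold. Tmem72, a membrane protein, had 173, 100.2, 121 and 164 CPM in NIHHL and 103, 125 and 114 CPM in Control, a 1.67-fold span. Its counts carried decimals, although its exons overlap no other gene's in the GENCODE annotation of GRCm38, and how its reads were assigned was not tested.

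How closely the genes followed Ttr was measured over the 7 libraries as the correlation of log2 CPM, and each coefficient was tested against all 5040 pairings of the libraries (exact permutation, two-sided). Of the other 30 members, 28 had a Pearson r of 0.9 or more with Ttr, as did 1.42% of all 14416 genes other than Ttr. The median r of the 30 was 0.97, against -0.015 over all those genes. Wfdc2 had the highest r of any gene (r = 0.996, rho = 0.964, exact permutation p = 0.000397), and Aqp1 (r = 0.994), Kcnj13 (0.992), Kcne2 (0.992) and Slc4a5 (0.9901) were the other members at 0.99 or more, a level that 0.0486% of all genes reached. Folr1, Steap1, Kcnj13 and Perp ranked the 7 libraries exactly as Ttr did (rho = 1.00), as did 0.187% of all genes. The lowest were Car12 (r = 0.861, rho = 0.857, exact permutation p = 0.00377) and Tmem72 (r = 0.722, rho = 0.857, exact permutation p = 0.0657).

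None of these correlations passed after adjustment over all 14416 genes: 0 genes did by either coefficient, with a lowest Benjamini-Hochberg adjusted permutation p of 0.0908, shared by members such as Wfdc2, Folr1 and Aqp1. With 7 libraries the smallest exact p that a Pearson correlation can have is 0.000198. Of the 28 members at r of 0.9 or more, 25 remained there when each group was centred on its own mean (median r 0.96). When the 2 libraries farthest from the median Ttr level, Control replicate 1 and NIHHL replicate 2, were left out, 21 of the 28 remained and Car12 reached it as well (median r 0.95). The 7 that then lay under 0.9 were F5, Cldn1, Trpv4, Cab39l, Slc13a4, Msx1 and Krt8. Without those 2 libraries r was 0.593 for Krt8, 0.571 for Tmem72, 0.777 for Msx1 and 0.780 for Slc13a4, so these 4 rest on them most. The genome-wide count of 204 genes at that r was 319 without Control replicate 2, 332 without Control replicate 3, 319 without NIHHL replicate 2 and 455 without NIHHL replicate 4.

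**Figure D2:**
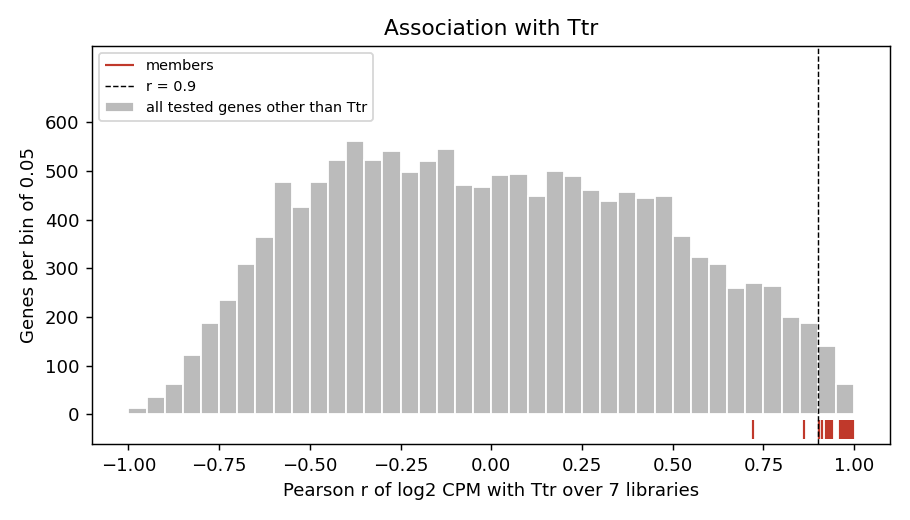
Number of genes (vertical axis, bins of 0.05) by Pearson r of log2 CPM with Ttr over 7 libraries (horizontal axis), for all 14416 genes other than Ttr, with a red tick under the axis for each of the other 30 members. The members crowd at the right end, 28 of them at or past the dashed line at 0.9, while the genes as a whole spread over the axis around a median of -0.015.

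The members also followed each other. Over all 465 pairs of the 31 genes the median r was 0.97 and the range 0.722 to 0.999, and 88.0% of pairs reached 0.9. The closest pairs were Aqp1 with Wfdc2 (r = 0.999), Enpp2 with Sulf1 (0.998) and Folr1 with Kcnj13 (0.998). The loosest pairs held Tmem72, Krt8 or Car12, such as Ttr with Tmem72 and Car12 with Krt8 (0.754). All points of these correlations share the 7 libraries and their depths, so these are descriptions.

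Closeness and steepness were different properties. The slope of a gene's log2 CPM on that of Ttr would be 1 if the 2 rose in proportion. It was highest in Aqp1 (0.923), Kcne2 (0.902), Cldn2 (0.863) and F5 (0.851), and 8 members had a slope of 0.75 or more. It was under 0.35 in another 8, with 0.302 in Slc13a4, 0.260 in Spint2, 0.257 in Car12, 0.201 in Msx1, 0.182 in Krt8 and 0.0865 in Tmem72. Perp joined a slope of only 0.284 to an r of 0.969 and the same ranks as Ttr. In Control replicate 1, where Ttr stood at 0.719% of its level in NIHHL replicate 1, Aqp1 and Kcne2 stood at 0.889% and 0.874%, Enpp2 at 5.70%, Otx2 at 9.66%, Cab39l at 32.0% and Tmem72 at 59.8%. The prior count of 2 behind the log2 values lowers the slope of the genes with few counts. In Control replicate 1 the members with a slope under 0.35 had 32 counts (Krt8) or more. Those with a slope of 0.75 or more had 21 counts (Folr1) or fewer there.

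**Figure D3:**
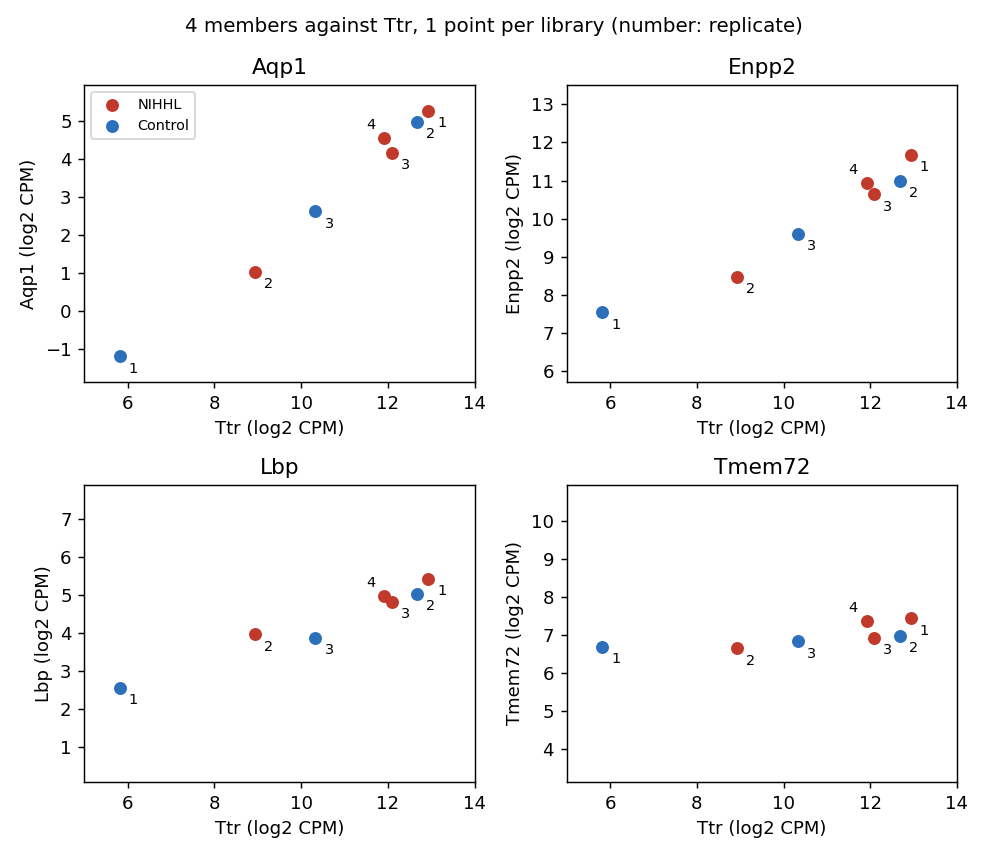
Log2 CPM of Aqp1, Enpp2, Lbp and Tmem72 (vertical axes, all spanning the same number of log2 units) against log2 CPM of Ttr (horizontal axes), 1 point per library, NIHHL in red and Control in blue, with the replicate number beside it. Libraries of both groups lie along 1 line in each of the first 3 panels, steep for Aqp1 and shallow for Lbp, and Tmem72 is nearly level.

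The order of 2 NIHHL libraries was the main place where members departed from Ttr. Ttr was lower in NIHHL replicate 4 than in replicate 3 by 0.17 on the log2 scale (a difference of -0.17). Only Steap1 (-0.32), Kcnj13 (-0.27), Folr1 (-0.096) and Perp (-0.076) shared that direction, and the other 26 members were higher in replicate 4, up to 0.84 for F5, 0.80 for Cldn1 and 0.74 for Slc4a5. The 5 genes lower in replicate 4 had a median exon length of 1.38 kb and the 26 higher ones 4.54 kb. Across the 31 genes the difference was larger in longer genes (Spearman rho = 0.56). The same correlation was 0.38 over 14391 tested genes with a length and 0.52 over the 8382 of them with a mean log2 CPM above 4, a limit that some members, such as Wfdc2 and Krt8, do not reach. For the difference of NIHHL replicate 1 minus Control replicate 2, the correlation with length was 0.33 over the members and 0.43 over all genes. The trend was thus not confined to NIHHL replicates 3 and 4. The part of length in the differences between libraries was not tested. Genes are not independent replicates, and these values carry no p.

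**Figure D4:**
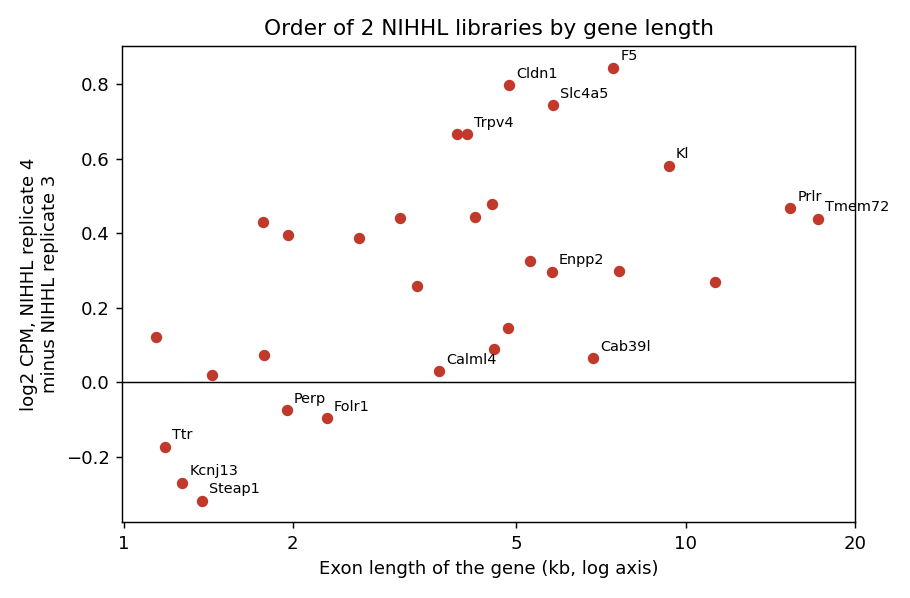
Difference in log2 CPM between NIHHL replicate 4 and NIHHL replicate 3 (vertical axis) against the exon length of the gene in kb (horizontal log axis), 1 point per member. The short genes Ttr, Kcnj13 and Steap1 lie below 0 and long genes such as F5, Kl and Prlr lie above it. Other short genes, such as Wfdc2 (1.14 kb, 0.12) and Kcne2 (1.77 kb, 0.43), also lie above 0.

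Whether noise exposure went with a different level was tested across all genes by edgeR's quasi-likelihood test. Of the 31 members 0 were called at an adjusted p under 0.05, beside 0 of 14417 genes (0%). At an unadjusted p under 0.05 there were 0 members, beside 3.63% of all genes, and by DESeq2 0 members at that p and 0 called, beside 0.022% of the genes it adjusted. The groups overlapped in all 31 members, while they did not overlap in 5.20% of all genes. The mean was higher in NIHHL in 31 of 31 members, beside 49.9% of all genes, with a median log2 fold change of 0.67 against -0.00045 over all genes. Since the members move together across libraries, these are not 31 separate observations.

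That median turned on single libraries. It was 0.22 without Control replicate 1, 1.80 without Control replicate 2, 0.23 without NIHHL replicate 1 and 1.02 without NIHHL replicate 2, and 28 of 31 members were higher in NIHHL without Control replicate 1. Ttr averaged 4133 ± 3003 CPM in NIHHL (SD, n = 4) and 2632 ± 3454 CPM in Control (SD, n = 3), a log2 fold change of 0.65 (SE 1.57). On log2 CPM its group means were 11.5 ± 1.75 in NIHHL and 9.61 ± 3.49 in Control (SD), a difference of 1.86 with an exact two-sided permutation p of 0.400 over 35 splits, whose smallest possible p is 0.0286. Without Control replicate 1 that difference was -0.036.

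By role, the median log2 fold change was 0.77 for the 7 secreted proteins, 0.71 for the 4 receptors and uptake proteins, 0.71 for the 7 ion and water genes, 0.50 for the 6 junction and epithelial genes, 0.74 for the 2 enzymes 0.36 for the 2 transcription factors and 0.29 for the 3 other genes, and 0 were called in any role. F5 had the largest log2 fold change (1.18, SE 1.24), with 59.1 ± 46.1 CPM in NIHHL and 25.5 ± 26.8 CPM in Control. Prlr (0.97, SE 0.93), Cldn2 (0.97, SE 1.28) and Kl (0.89, SE 0.89) followed. The smallest p of the set belonged to Tmem72 (log2 fold change 0.29, SE 0.19), the gene that varied least between libraries. Every member had an edgeR adjusted p of 0.996. Cab39l had the smallest change (0.17, SE 0.47).

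**Figure D5:**
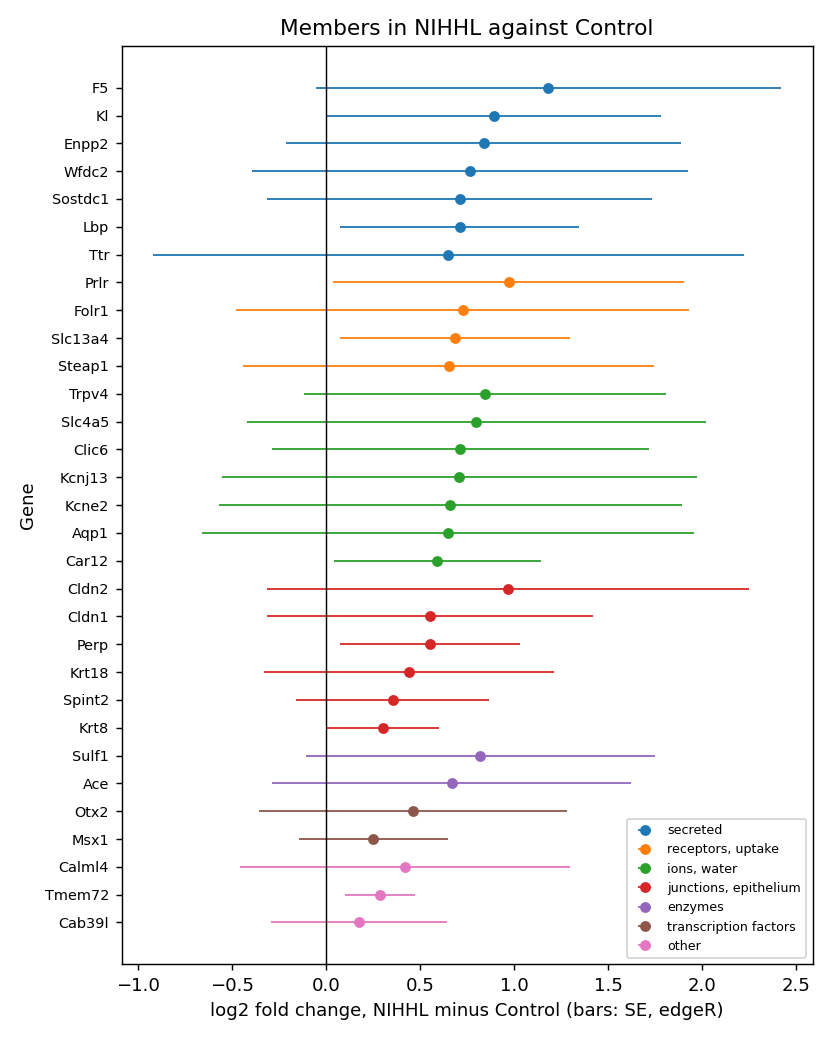
Log2 fold change of each member, NIHHL minus Control (horizontal axis), with its SE from edgeR as a bar, grouped by role from secreted proteins at the top. All 31 points lie right of 0, the bars of most cross 0, and the bar of Ttr is the widest, at an SE of 1.57.

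At equal Ttr the groups were closer, which follows in large part from the members' close correlation with Ttr. With log2 CPM of Ttr as a covariate the median log2 fold change of the other 30 members was 0.065, against 0.0047 over all genes, and 22 of the 30 were above 0. Of the 30, 0 were called by edgeR at an adjusted p under 0.05, beside 0% of all genes, and 1 had an unadjusted p under 0.05, beside 6.13% of all genes. That gene was Lbp (log2 fold change 0.31, SE 0.12, edgeR adjusted p = 0.789). The covariate values ran from -0.22 for Cab39l (SE 0.15) to 0.36 for F5 (SE 0.34). Ttr was measured in the same libraries, so its own error enters these values.

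A second list of choroid plexus genes, without members of the first, showed the same libraries at the ends for part of its genes. This list was chosen with earlier results of these data known, so it is not a separate check. Of its 47 tested genes 23 had an r of 0.9 or more with Ttr, beside 1.42% of all genes. The median r of the list was 0.90. Slco1a5, an organic anion transporter, had 5.29, 0.575, 2.92 and 2.77 CPM in NIHHL and 0, 4.32 and 0.849 CPM in Control (r = 0.996). Mfrp, a frizzled-related membrane protein, had 85.1, 4.94, 33.8 and 42.8 CPM in NIHHL and 0.809, 55.4 and 12.4 CPM in Control (r = 0.995). Ecrg4, the precursor of the secreted peptide augurin, followed at r = 0.99 and Tmprss11a, a membrane serine protease, at 0.988. At the other end Krt19, a keratin, had an r of -0.65 and C1qtnf5, a C1q and TNF related protein, -0.73. Against Control, 40 of the 47 had a higher mean in NIHHL, beside 49.9% of all genes, and 0 were called. Genes of the list can move together, so these are not 47 separate observations. The smallest p values of the list were those of Abcc4, an efflux transporter, at 18.3 ± 2.08 CPM in NIHHL and 14.5 ± 1.96 in Control (log2 fold change 0.33, SE 0.12), and Slc12a4, a potassium chloride cotransporter, at 27.1 ± 4.40 CPM and 21.5 ± 2.19 CPM (0.33, SE 0.13), both with an edgeR adjusted p of 0.996.

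Among the 10 genes outside the set with the highest r with Ttr, 5 were on that second list: Slco1a5, Mfrp, Ecrg4, Tmprss11a and Epn3, an epsin of endocytosis. The others were Coq10a (r = 0.989), a coenzyme Q binding protein, Crb3 (0.988), an apical polarity protein of epithelia, Ooep (0.981), a gene known from oocytes, Mtfr1 (0.981), a mitochondrial fission regulator, and Slc24a5 (0.978), a sodium, potassium and calcium exchanger. Coq10a moved little, with a slope of 0.0413 on Ttr and 20.5 to 23.1 CPM in NIHHL against 18.9 to 22.7 CPM in Control. Slc24a5 moved with a slope of 0.847, with 7.46 CPM in NIHHL replicate 1 and no count in Control replicate 1. Of the 100 genes with the highest r, 22 were members and 17 were on the second list. Both sets were chosen with earlier results of these data known, so these counts are descriptions.

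Markers of neighbouring cell types followed Ttr less closely as lists, by their median r. An r of 0.9 or more was reached by 1.42% of all genes, so a count of 0 on a short list says little. Ependymal cilia genes, from the cells that line the ventricle beside the plexus, had 2 of 25 genes at r of 0.9 or more (Mia and Tekt1), with a median r of 0.31. Their sum ran from 182 to 214 CPM in NIHHL and from 125 to 159 CPM in Control, so the groups did not overlap. Of the 25 genes, 23 had a higher mean in NIHHL and 13 had an unadjusted edgeR p under 0.05, beside 3.63% of all genes. Genes of 1 cell type can move together, so these are not 25 separate observations. Foxj1, the master factor of motile cilia, had 19.7, 17.3, 17.1 and 17.1 CPM in NIHHL and 7.42, 11.5 and 15.1 CPM in Control (log2 fold change 0.64, SE 0.19, edgeR adjusted p = 0.996; r with Ttr 0.69, and 0.082 without Control replicate 1 and NIHHL replicate 2). Within the list, Dnah6 (0.81, SE 0.16) and Ak7 (0.70, SE 0.16) had the smallest p and r of 0.31 and 0.28 with Ttr. The part of ependymal cells in the members' levels was not tested.

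Meningeal fibroblast genes had 3 of 16 at r of 0.9 or more, of which Igf2 and Igfbp2 are also on the second choroid plexus list and the third was Lum. Their median r was -0.13, and their sum ran from 266 to 546 CPM in NIHHL and from 208 to 364 CPM in Control. Dcn, a defining fibroblast gene, averaged 51.2 ± 9.61 CPM (SD) in NIHHL libraries and 50.6 ± 5.39 CPM in Control libraries. Endothelial genes had 0 of 13 at that r, and Plvap, a gene of fenestrated capillaries such as those of the choroid plexus, came closest, with an r of 0.894 and 3.45 to 5.51 CPM in NIHHL against 3.37 to 5.66 CPM in Control. Mural, oligodendrocyte, astrocyte, hippocampal neuron, thalamus and blood lists had 0 genes at r of 0.9 or more, with median r of -0.45, 0.46, -0.63, -0.13, 0.39 and 0.54. Of the 9 oligodendrocyte genes 5 had an unadjusted p under 0.05, as did 1 thalamus gene and none on the meningeal, endothelial, mural, astrocyte, hippocampal neuron and blood lists. That share was 3.63% over all genes, and genes of a list are not separate observations. No list had a gene called between the groups, and no marker list had a gene at 0 in every library. Oligodendrocytes also make Enpp2, and their summed genes ran from 8306 to 9780 CPM in NIHHL and from 7212 to 9042 CPM in Control. Their part in the level of Enpp2 was not tested.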

How the data were processed

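Values deposited by the authors are expected counts, 1 row per gene, and 90.7% of them are whole numbers. Tools listed in the submitters' processing notes are HISAT2, Bowtie2 2.2.8, DESeq2 and StringTie 1.3.1, with no role stated. The genome build, annotation, strand setting and counting step were not given in the sources used here. Per the labels' protocols, polyadenylated RNA was captured before library preparation. Here counts were rounded, genes filtered with edgeR's filterByExpr at a minimum count of 10 (14417 of 21965 genes, 99.96% of counts), scaled by TMM and given as CPM or as log2 CPM with a prior count of 2. Total counts ran from 16982202 to 21585796 in NIHHL and from 14871376 to 24515146 in Control, and intervals and limits cover counting error only. Differences between NIHHL and Control come from edgeR's quasi-likelihood test, adjusted by Benjamini-Hochberg across all tested genes, and SE is the fold change over the square root of F. Correlations with Ttr were tested by exact permutation. Exon lengths are unions of exons in GENCODE vM21 (GRCm38), matched by gene identifier. All 31 members are named. Other genes were drawn from a rule: the 10 outside the set closest to Ttr, the 2 smallest p of a list, the extremes by r of the second choroid plexus list, and the defining markers of the lists. Only some of these genes are printed. The 2 smallest p are printed for the second choroid plexus list and the ependymal cilia list only, and some defining markers are left out. Mia, Tekt1, Lum, Igf2 and Igfbp2 were named after their values were seen. The members and the 10 marker lists were chosen with earlier results of these data known. The promoter letters and the comparison with exon length were chosen after values were seen. Scripts were tested on simulated data. Software was R 4.3.3, edgeR 4.0.16, limma 3.58.1, DESeq2 1.42.0, numpy 2.4.6 and pandas 2.3.3.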

Additional observations from a re-analysis of the deposited data

How the results depend on the processing

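Counts of members called between the groups were 0 under every alternative run (other scaling, no low-count filter, library sizes without the members, DESeq2, limma-voom, Ttr as a covariate, the replicate block and each library left out). Counts over all genes were 0 except by DESeq2, which called 4, none a member. The median log2 fold change of the members stayed between 0.67 and 0.87 under the scalings, filters and tools, and ran from 0.22 to 1.80 with 1 library left out. The difference in log2 CPM of Ttr ran from -0.036 to 3.40 with 1 library left out; it turned negative, at -0.036, without Control replicate 1. Replicate numbers are shared between the groups, and the labels do not say that they pair samples. Deviations from the group means had correlations of -0.45, -0.44 and 0.061 between samples with the same number. Between samples with unlike numbers they ran from -0.13 to 0.48. So few correlations cannot decide whether the numbers pair samples. With the replicate block 0 genes were called, 339 had an unadjusted p under 0.05 against 523 without it, and the members' median was 0.78.

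Between 26 and 29 members had an r of 0.9 or more with Ttr with 1 library left out. Of the 28 members there with all libraries, between 25 and 28 kept it, and Car12 reached it without Control replicate 1 and without Control replicate 3. The members' median r ran from 0.97 to 0.98. The count over all genes ran from 255 to 455 in those settings and was 356 without Control replicate 1 and NIHHL replicate 2 together; with fewer libraries a high r is reached more easily. Without log scaling 26 members and 285 genes reached it. The median pairwise r of members ran from 0.96 to 0.98. Low counts limit Aqp1, Kcne2 and Wfdc2 in Control replicate 1, at 5, 5 and 0 counts. Steap1 (8), Cldn2 (10), Slc4a5 (11), Kcnj13 (14), F5 (19), Trpv4 (20) and Folr1 (21) also had few counts there. Their folds over that library are therefore imprecise too.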
